A study of Mus musculus with 4 samples.

Results

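The genes described here are 9 secreted signals that act on nerve fibres: the trophic factors Bdnf, Gdnf and Nrtn, and the guidance cues Ntn1, Sema3a, Sema3c, Sema3d, Sema3e and Slit2. They were chosen by symbol from the 32285 genes listed in every library, and all 9 were found. The study sequenced RNA of single cells from intervertebral discs, the fibrocartilage joints of the spine, taken from the mouse tail 7 days after needle puncture. All mice were wildtype C57BL/6 females, 12 weeks old. Injured discs were the levels CC5/6 to CC9/10, punctured on both sides with a 30G needle, and control discs were the unpunctured levels CC12/13 to CC16/17 of the same animals. There were 2 rounds with 1 control and 1 injured library each. Discs of 6 mice, 30 per group, were pooled, and the labels do not say whether these numbers hold for each round. Cell suspensions were snap frozen, thawed and sorted with DAPI for viable cells before droplet capture. Tail level and injury cannot be told apart in any comparison. The p-values rest on the spread between libraries of pooled mice. That spread is estimated jointly over genes, so the spread of a single gene counts only in part.

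Neurotrophic factors keep neurons alive and promote the growth of their axons. Bdnf binds the receptor TrkB, encoded by Ntrk2, whereas Gdnf and its relative Nrtn (neurturin) bind GFR-alpha co-receptors that signal through Ret. Netrin-1, encoded by Ntn1, attracts axons through Dcc and can repel them through Unc5 receptors. Class 3 semaphorins are secreted ligands of neuropilins and plexins, of which Sema3a is the classical repellent of sensory axons, and Slit2 repels axons through Robo receptors. The healthy disc is sparsely innervated, with fibres mostly limited to the outer annulus, and these cues are studied there for their bearing on nerve ingrowth. Several of them also act on blood vessels.

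The genes lie on 5 autosomes, with the 4 semaphorins and Slit2 together on chromosome 5. In the GENCODE annotation of GRCm38 (mm10), Nrtn (ENSMUSG00000039481) spans chr17:56751325-56757530 on the minus strand, and Ntn1 (ENSMUSG00000020902) spans chr11:68209364-68400823 on the minus strand. On the plus strand of chromosome 5, Sema3d (ENSMUSG00000040254) spans 12383385-12588948, Sema3a (ENSMUSG00000028883) 13125414-13602565, Sema3e (ENSMUSG00000063531) 14025276-14256689, Sema3c (ENSMUSG00000028780) 17574281-17730268 and Slit2 (ENSMUSG00000031558) 47983138-48307733. Bdnf (ENSMUSG00000048482) spans chr2:109674700-109727007 and Gdnf (ENSMUSG00000022144) chr15:7810846-7837575. An exon of Bdnf overlaps the antisense gene Gm45346, and no other member had an exon overlap with another gene.

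The 250 bases upstream of the RefSeq start are shown for Nrtn, the trophic factor with the most UMIs, and for Sema3d, Sema3a and Sema3e, the 3 genes of chromosome 5 whose injury values lay furthest apart between the classes below. No window was matched for Ntn1, and the windows of the other 4 genes matched but are not printed. Sequences are RefSeq, GRCm38.p6, 5′ to 3′ on the strand of the gene. Capitals mark matches, on either strand, to an AP-1 site (TGANTCA), a GC box (GGGCGG), a SOX core (ACAAT) or a TATA box (TATAAA).
Nrtn, chr17:56757549-56757798, minus strand: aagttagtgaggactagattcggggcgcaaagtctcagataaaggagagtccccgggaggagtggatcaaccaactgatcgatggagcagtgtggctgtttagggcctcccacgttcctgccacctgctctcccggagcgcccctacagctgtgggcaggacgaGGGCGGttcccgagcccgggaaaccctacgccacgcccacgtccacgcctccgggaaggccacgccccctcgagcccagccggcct
Sema3d, chr5:12382916-12383165, plus strand: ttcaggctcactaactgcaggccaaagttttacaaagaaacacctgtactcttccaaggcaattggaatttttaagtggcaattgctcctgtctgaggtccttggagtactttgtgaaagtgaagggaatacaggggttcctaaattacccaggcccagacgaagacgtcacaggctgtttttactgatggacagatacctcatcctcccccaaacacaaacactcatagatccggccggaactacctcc
Sema3a, chr5:13396534-13396783, plus strand: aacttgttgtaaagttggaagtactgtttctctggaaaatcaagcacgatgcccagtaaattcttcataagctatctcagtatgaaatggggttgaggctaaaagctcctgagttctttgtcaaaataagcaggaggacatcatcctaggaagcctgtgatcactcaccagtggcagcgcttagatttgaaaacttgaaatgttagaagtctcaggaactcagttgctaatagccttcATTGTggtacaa
Sema3e, chr5:14025026-14025275, plus strand: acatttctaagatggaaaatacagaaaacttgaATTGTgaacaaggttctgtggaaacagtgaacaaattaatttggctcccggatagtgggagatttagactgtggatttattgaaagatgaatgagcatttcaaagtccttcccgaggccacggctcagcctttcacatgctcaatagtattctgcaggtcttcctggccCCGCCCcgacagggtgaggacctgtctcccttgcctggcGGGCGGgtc
The Nrtn window held 1 GC box, the Sema3e window 2 GC boxes and 1 SOX core, and the Sema3a window 1 SOX core. The Sema3d window held none of the 4 motifs. The E-box CANNTG, not capitalised, occurred 3 times in the Nrtn window, 3 times in Sema3d, and 1 time each in Sema3a and Sema3e. Of 32851 mouse promoter windows of the same length, 6.75% held the AP-1 letters, 32.7% the GC box, 27.7% the SOX core, 12.4% the TATA letters and 66.2% an E-box. The RefSeq start of Sema3a lies inside the longer GENCODE gene.

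A barcode counted as a cell from 250 detected genes upward, and values are UMIs (distinct transcript molecules) or CPM, in which the UMIs of the cells concerned are scaled to the same total in every library. Control round 1 had 378 cells, injured round 1 had 778, control round 2 had 856 and injured round 2 had 1834, with median UMIs per cell of 836 to 1061.5 in controls and 4635 to 7033.5 in injured libraries. Depth per cell therefore moved with injury, and its part in the results was not tested. The control round 1 matrix listed 444 barcodes and none under 502 UMIs, and 147 of them also occurred at that depth in injured round 1. Of the 378 cells, 122 had such a barcode, and they held 0 of the 67 Nrtn UMIs of that library, 5 of the 105 Sema3d UMIs and no UMI of Ntn1, Bdnf or Gdnf. A wider choice by the ratio of UMIs in the 2 libraries left out 159 cells, with 1 of the 67 Nrtn UMIs. Without these cells the median of control round 1 was 3089.5 UMIs per cell, or 3628 by the ratio, so the depth gap of round 1 was smaller without them. Results are given without them where they matter. Cells fell into 19 clusters, built without the 9 genes and their pathway genes. Clusters were named only from marker lists, and the 2 classes compared were the inner annulus or cartilage-like class and the outer annulus or fibroblast-like class, called inner and outer below. The names rest on which markers were detected in each cluster and do not separate the classes by the level of the inner markers. The summed inner markers were 16032 and 13711 CPM in controls and 20426 and 22608 CPM in injured libraries of the inner class, but 22394 and 18664 CPM in controls and 20549 and 10760 CPM in injured libraries of the outer class, higher there in 3 of 4 libraries. The outer markers were higher in the outer class in 4 of 4 libraries. Cluster 9, which held most control outer cells, had 8 outer and 6 inner markers detected. The inner class held 191 and 251 control cells against 488 and 1019 injured cells, and the outer class 44 and 59 against 33 and 410, in rounds 1 and 2. Schwann cell markers summed to 159 and 211 CPM in controls and 217 and 261 CPM in injured libraries, with 6 to 10 of 11 detected per library and Gfap at 0 in all 4. Neuron markers summed to 19.7 and 13.9 CPM in controls and 24.7 and 43.4 CPM in injured libraries, with 6 to 10 of 11 detected and Syt1 at 0 in all 4. Over all cells, other marker lists separated the groups further. In the controls of round 1 and round 2, pancreas acinar markers summed to 1812 and 1222 CPM, B or plasma cell markers to 1228 and 723 CPM, nucleus pulposus markers to 1780 and 1403 CPM and osteoblast markers to 726 and 58.8 CPM. The injured libraries had 25.7 and 2.94 CPM, 106 and 3.41 CPM, 695 and 413 CPM, and 40.6 and 25.9 CPM of the same lists. Macrophage markers were higher with injury, at 374 and 429 CPM against 78.0 and 223 CPM, and so were mural cell markers, at 334 and 416 CPM against 206 and 291 CPM. The part of these lists in the values over all cells was not tested. Values from the disc classes alone, which keep the nucleus pulposus-like cells, are given for Nrtn, Ntn1 and Slit2 but not for every gene.

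**Figure D1:**
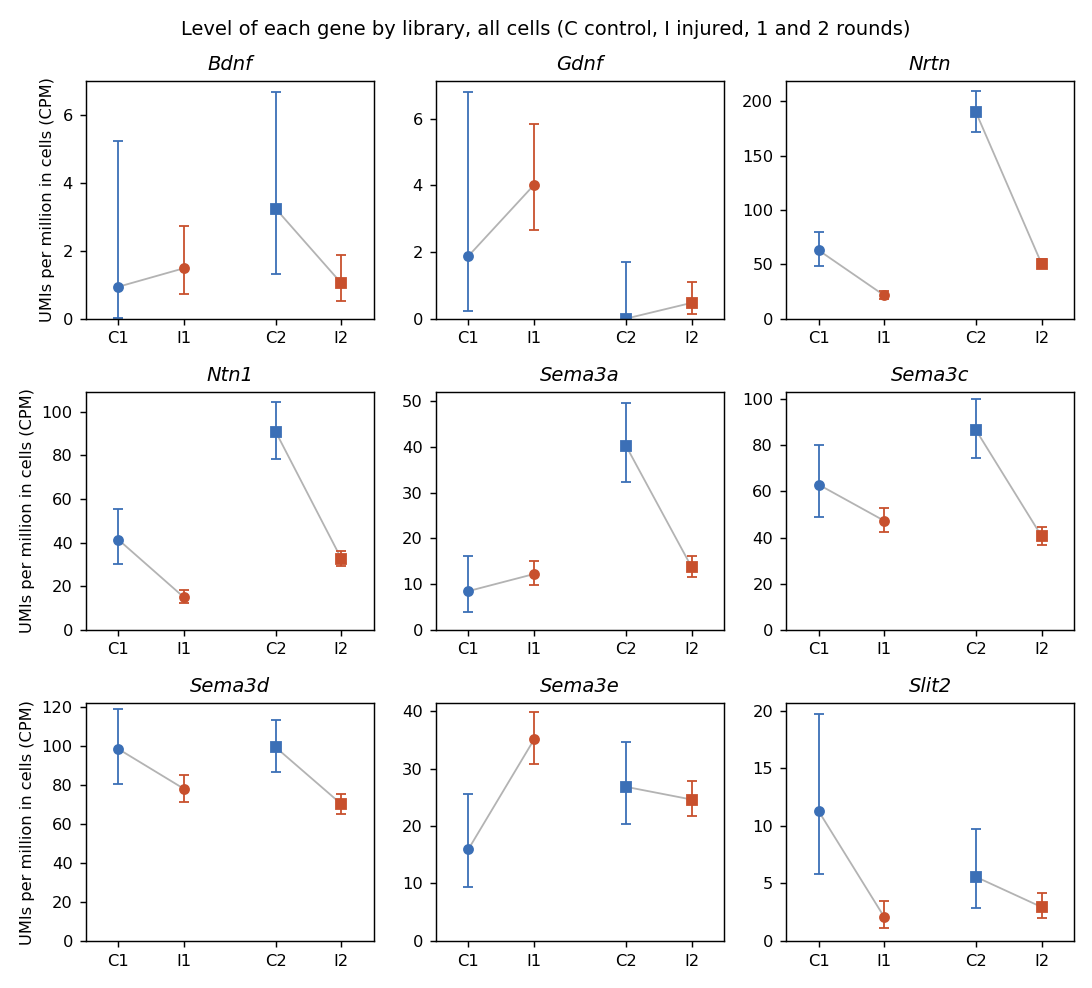
Level of each of the 9 genes (CPM over all cells, 1 panel per gene) in the 4 libraries, with exact Poisson 95% intervals that cover counting error only. Blue points are control and red points injured libraries, circles are round 1 and squares round 2, and lines join the libraries of a round; Nrtn, Ntn1, Sema3c, Sema3d and Slit2 lie lower in the injured library of both rounds.

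Nrtn was the trophic factor with enough UMIs to judge. Over all cells it reached 63.0 and 190 CPM in the control libraries of rounds 1 and 2, from 67 and 410 UMIs. The injured libraries had 21.4 and 50.4 CPM, from 144 and 532 UMIs. Both injured libraries lay below both controls, and the controls differed from each other by more than the lower control differed from the higher injured library. Group means were 126 ± 89.6 CPM in controls and 35.9 ± 20.5 CPM in injured libraries (SD, n = 2 each). Within rounds, the injured level was 0.340 times (95% counting interval 0.253 to 0.461) and 0.266 times (0.233 to 0.303) that of the control.

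Ntn1 gave 41.3 and 90.7 CPM in controls against 14.9 and 32.5 CPM in injured libraries, from 44 to 343 UMIs. As for Nrtn, the injured libraries were the lower ones and round 2 was higher than round 1 in both groups. The ratio of injured to control was 0.360 in round 1 and 0.358 in round 2.

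The semaphorins were measured in all 4 libraries. Sema3c, a cue for migrating neural crest and vascular cells, had 63.0 and 86.5 CPM in controls and 47.3 and 40.5 CPM in injured libraries. Sema3d, which also guides crest and endothelial cells, had 98.7 and 99.5 CPM in controls and 78.2 and 70.3 CPM in injured libraries. For both genes the groups did not overlap, and the distance was small for Sema3d. Sema3a had 8.46 and 40.3 CPM in controls and 12.2 and 13.7 CPM in injured libraries. Sema3e, the ligand of plexin-D1, had 16.0 and 26.8 CPM in controls and 35.1 and 24.6 CPM in injured libraries. Sema3a and Sema3e overlapped between groups, and the rounds went opposite ways for each: the Sema3a ratios were 1.44 and 0.341, and those of Sema3e 2.20 and 0.918.

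Slit2 was low throughout, with 12 UMIs in each control library, 14 UMIs in injured round 1 and 31 UMIs in injured round 2. These were 11.3 and 5.55 CPM in controls and 2.08 and 2.94 CPM in injured libraries. The 2 groups did not overlap, but the round 2 ratio of 0.529 had an interval of 0.264 to 1.13. Of the 12 UMIs of control round 1, 10 lay in nucleus pulposus-like cells. In the disc classes alone Slit2 had 12.7 and 3.30 CPM in controls and 1.80 and 3.03 CPM in injured libraries. The round 2 ratio there was 0.918 (0.376 to 2.70). In the inner class Slit2 had 0 and 3.91 CPM in controls and 1.74 and 3.35 CPM in injured libraries, which overlapped (0.23 ± 0.99, edgeR).

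Bdnf and Gdnf were too sparse to judge. Bdnf had 1 and 7 UMIs in the controls of rounds 1 and 2 and 10 and 11 UMIs in the injured libraries, in 24 of 3846 cells. Gdnf had 2 and 0 UMIs in controls and 27 and 5 UMIs in injured libraries, and in control round 2 a count of 0 allows up to 1.39 CPM. Neither passed the filter on low counts in any of the comparisons as designed. Of the 34 Gdnf UMIs, 17 lay in cluster 8, led by Mmp12 and Mmp3, all of them in 10 of its 162 cells of injured round 1.

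In all, 5 of the 9 genes had both injured libraries below both controls and none had both above. Of the 11990 genes tested over all cells, 20.6% were lower in this way and 16.4% higher. None of the 7 genes that passed the filter was called by the edgeR quasi-likelihood test at an adjusted p (Benjamini-Hochberg) under 0.05, where 14 of the 11990 genes (0.117%) were called and 948 had an unadjusted p under 0.05, 3 of them among the 7. DESeq2 called 181 of the 11990 genes (1.51%) and 0 of the 7.

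The log2 fold changes of injured against control were -1.73 ± 0.62 (SE) for Nrtn (adjusted p = 0.530, edgeR), -1.40 ± 0.54 for Ntn1 (adjusted p = 0.561) and -1.61 ± 0.65 for Slit2 (adjusted p = 0.599). Sema3a, Sema3c and Sema3d had -0.89, -0.71 and -0.36, and Sema3e had 0.51, with adjusted p-values of 0.699 to 0.876. The median over the 7 genes was -0.89, beside -0.01 over all genes tested.

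Control and injured discs of a round came from the same animals, so the round was also fitted as a block. With it, 736 genes (6.14%) were called, 327 of them (2.73%) higher and 409 (3.41%) lower in injured libraries. Both Nrtn and Ntn1 were among the lower ones, Nrtn at -1.68 ± 0.25 (adjusted p = 0.00110, edgeR) and Ntn1 at -1.40 ± 0.25 (adjusted p = 0.00487). Summed over the disc classes alone, which leaves out immune, vascular and unnamed clusters, edgeR called 2 of 11235 genes (0.0178%) and none of the 7. With the block it called 567 (5.05%), 2.52% lower, with Nrtn at -1.79 (adjusted p = 0.00137) and Ntn1 at -1.53 (adjusted p = 0.00439). Over all cells without the round 1 barcodes shared between libraries, the block values were -1.75 (adjusted p = 0.0183) and -1.47 (adjusted p = 0.0341). The other 5 genes had adjusted p-values of 0.119 to 0.434 with the block. Without the block, leaving out control round 1 gave -2.27 for Nrtn (adjusted p = 0.00617), and leaving out injured round 2 gave -2.53 for Nrtn (adjusted p = 0.00407) and -2.13 for Ntn1 (adjusted p = 0.0163). Neither gene was called without injured round 1, at -1.21 and -0.92 (adjusted p = 0.541 and 0.665), or without control round 2, at -0.74 and -0.73 (adjusted p = 0.915 and 0.918, edgeR).

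**Figure D2:**
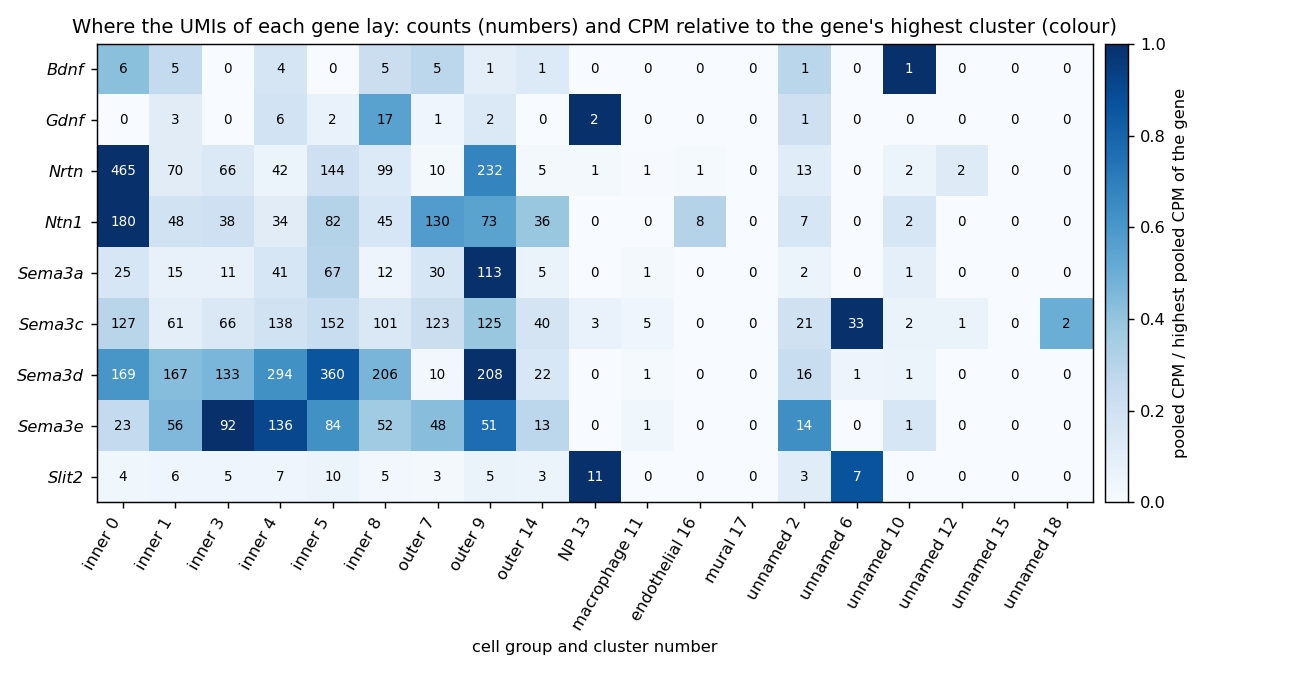
UMIs of each gene (numbers) in each of the 19 clusters, all libraries pooled, with colour giving the CPM relative to the gene's highest cluster. Nrtn is concentrated in clusters 0 and 9, Sema3a in cluster 9, and Sema3d in cluster 9 and inner clusters with 10 UMIs in cluster 7.

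The 9 genes were not spread evenly over cell groups. Of 1153 Nrtn UMIs in cells, 76.8% lay in the inner class and 21.4% in the outer class. Its 2 highest clusters were cluster 0, led by the cartilage genes Cnmd, Grem1 and Sfrp5, with 266 CPM from 465 UMIs pooled over libraries, and cluster 9, led by Angptl7 and Myoc, with 179 CPM from 232 UMIs. Library values ran from 73.3 to 367 CPM in cluster 0 and from 114 to 273 CPM in the 3 libraries with at least 20 cells in cluster 9, so these 2 clusters did not differ beyond their spread. Next came the inner clusters 8 and 5, with library values of 28.1 to 75.2 and 15.1 to 63.4 CPM, which overlapped each other. Nrtn was itself among the 10 leading genes of cluster 0, although it was not used to form it.

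Within the outer class, clusters differed in these genes. In injured round 2, the 248 cells of cluster 7, led by Aspn and Cthrc1, had 5.04 CPM of Nrtn and 1.51 CPM of Sema3d. The 88 cells of cluster 9 in the same library had 273 CPM of Nrtn and 136 CPM of Sema3d. Ntn1 went the other way, with 52.9 CPM in cluster 7 and 34.4 CPM in cluster 9. These values come from 1 library and have no test.

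Sema3a was highest in cluster 9, at 87.3 CPM from 113 UMIs pooled, where libraries ranged from 18.2 to 143 CPM. The next named cluster, the inner cluster 5 led by M1ap and Fmod, had 25.7 CPM, and its library values of 25.1 to 30.2 CPM lay within the range of cluster 9. Sema3d was highest in cluster 9 (161 CPM), cluster 5 (138 CPM) and cluster 4 (100.9 CPM), the last led by Il11 and Bmp2. Library values of clusters 9 and 5, 136 to 195 and 87.7 to 145 CPM, overlapped. Sema3e was highest in cluster 3, led by Gdf5, at 51.5 CPM pooled, with 43.5 and 115 CPM in its 2 libraries, and these overlapped the 26.0 to 69.6 CPM of cluster 5.

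Sema3c and Slit2 had another distribution. Sema3c reached 251 CPM, from 33 UMIs, in cluster 6, an unnamed cluster led by Ccl11 and Dpep1 in which all the control round 1 cells had barcodes shared with the injured library. Cluster 9 followed with 96.5 CPM. For Slit2, 11 of 69 UMIs lay in the nucleus pulposus-like cluster 13, led by Car3, and 10 of these came from 7 of its 29 control round 1 cells. That cluster had a median mitochondrial share of 46.0%, and only 5 and 1 of its cells came from the injured libraries. Cluster 6 held 7 Slit2 UMIs.

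Vascular and immune-like cells were few, and so were the UMIs of these genes in them. The mural-like cluster had 0 UMIs of all 9 genes. The endothelial-like cluster, with 65 cells, had 8 UMIs of Ntn1 (31.5 CPM, Poisson 95% interval 13.6 to 62.0), 1 of Nrtn and 0 of the others. The macrophage-like cluster, with 134 cells, had 5 UMIs of Sema3c (9.87 CPM), 1 each of Nrtn, Sema3a, Sema3d and Sema3e, and 0 of the others.

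The clusters with the highest Nrtn made up different shares of the classes in the 2 groups. Cluster 0 made up 39.3% (32.3 to 46.6%, exact binomial 95% interval) and 83.3% (78.1 to 87.7%) of inner cells in the controls of rounds 1 and 2 and 5.53% (3.68 to 7.95%) and 7.07% (5.57 to 8.82%) in the injured libraries. The injured inner cells lay mostly in clusters 4 and 8 in round 1 and in clusters 1, 3 and 5 in round 2, while cluster 4 held 78 of the 191 inner cells of control round 1. The shared barcodes of round 1 bear directly on these shares: they were 92 of the 191 inner cells of that control, 76 of its 78 cells in cluster 4 and 0 of its 75 cells in cluster 0. Without them cluster 0 made up 75.8% (66.1 to 83.8%) of the 99 inner cells left in control round 1, and cluster 4 held 2. Cluster 9 made up 86.4% and 84.7% of control outer cells and 54.5% and 21.5% of injured outer cells, the others of injured round 2 lying mostly in clusters 7 and 14. These shares stand beside every class value below, and values within single clusters are given after them.

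Markers of the outer class moved with injury inside the inner class, where they summed to 6808 and 5178 CPM in controls and 19408 and 20408 CPM in injured libraries, with 15 to 17 of 17 detected. Their part in the inner class values below was not tested. In the inner class, Nrtn had 64.7 and 277 CPM in controls and 22.3 and 55.1 CPM in injured libraries. Ntn1 had 48.9 and 112 CPM in controls and 13.3 and 26.9 CPM in injured libraries. For both genes the injured libraries lay below the controls. Sema3e lay above, with 9.47 and 21.9 CPM in controls, from 6 and 28 UMIs, and 38.4 and 28.8 CPM in injured libraries. Sema3d was near level in the inner class, at 96.3 and 99.97 CPM in controls and 86.5 and 98.0 CPM in injured libraries. Sema3a had 4.74 and 17.2 CPM against 11.3 and 12.3 CPM, and overlapped. Sema3c had 53.7 and 70.3 CPM against 48.0 and 37.4 CPM, and did not. Of the 10851 genes tested in the inner class, 24% had both injured libraries below both controls and 13.9% above.

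None of the 7 genes tested in the inner class was called by edgeR, where 12 of 10851 genes (0.111%) were called and 819 had an unadjusted p under 0.05, 3 of them among the 7. The values were -1.98 ± 0.69 for Nrtn (adjusted p = 0.511), -1.85 ± 0.53 for Ntn1 (adjusted p = 0.381) and 1.16 ± 0.48 for Sema3e (adjusted p = 0.628). With the round as a block, 468 genes (4.31%) were called, 2.14% lower, among them Nrtn at -1.84 ± 0.27 (adjusted p = 0.00203) and Ntn1 at -1.83 ± 0.28 (adjusted p = 0.00250). Sema3e had 1.12 ± 0.38 with the block (adjusted p = 0.119), and 1.14 without the shared barcodes (adjusted p = 0.0343), in a fit that called 984 of 10828 genes (9.09%). Without the block, Nrtn and Ntn1 were also called when control round 1 was left out, at -2.63 (adjusted p = 0.000239) and -2.27 (adjusted p = 0.00301). They were not called without injured round 1 (-1.39 and -1.35), without injured round 2 (-2.86 and -2.53) or without control round 2 (-0.59 and -1.14), where adjusted p-values were 0.143 to 0.848 (edgeR).

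Within cluster 0 the Nrtn values lay closer together between groups. They were 73.3 and 367 CPM in controls and 81.9 and 299 CPM in injured libraries, so the rounds differed more than the groups. The round ratios were 1.12 (0.553 to 2.18) and 0.814 (0.621 to 1.05). The edgeR value was -0.20 ± 0.81, a test added after the data were seen, in which 0 of 4466 genes were called and 66 had an unadjusted p under 0.05; with the round as a block 40 (0.896%) were called, none of the 9 genes among them. Ntn1 in cluster 0 had 57.0 and 139 CPM in controls and 27.3 and 88.4 CPM in injured libraries, at -0.73 ± 0.68. Cells of injured round 1 in this cluster numbered 27.

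Among inner cells outside cluster 0, Nrtn had 52.8 and 9.31 CPM in controls, the latter from 3 UMIs, and 20.4 and 46.0 CPM in injured libraries. These overlapped, and 92 of the control round 1 cells there had shared barcodes. Ntn1 there had 37.7 and 31.0 CPM in controls and 12.8 and 24.6 CPM in injured libraries, which did not overlap.

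**Figure D3:**
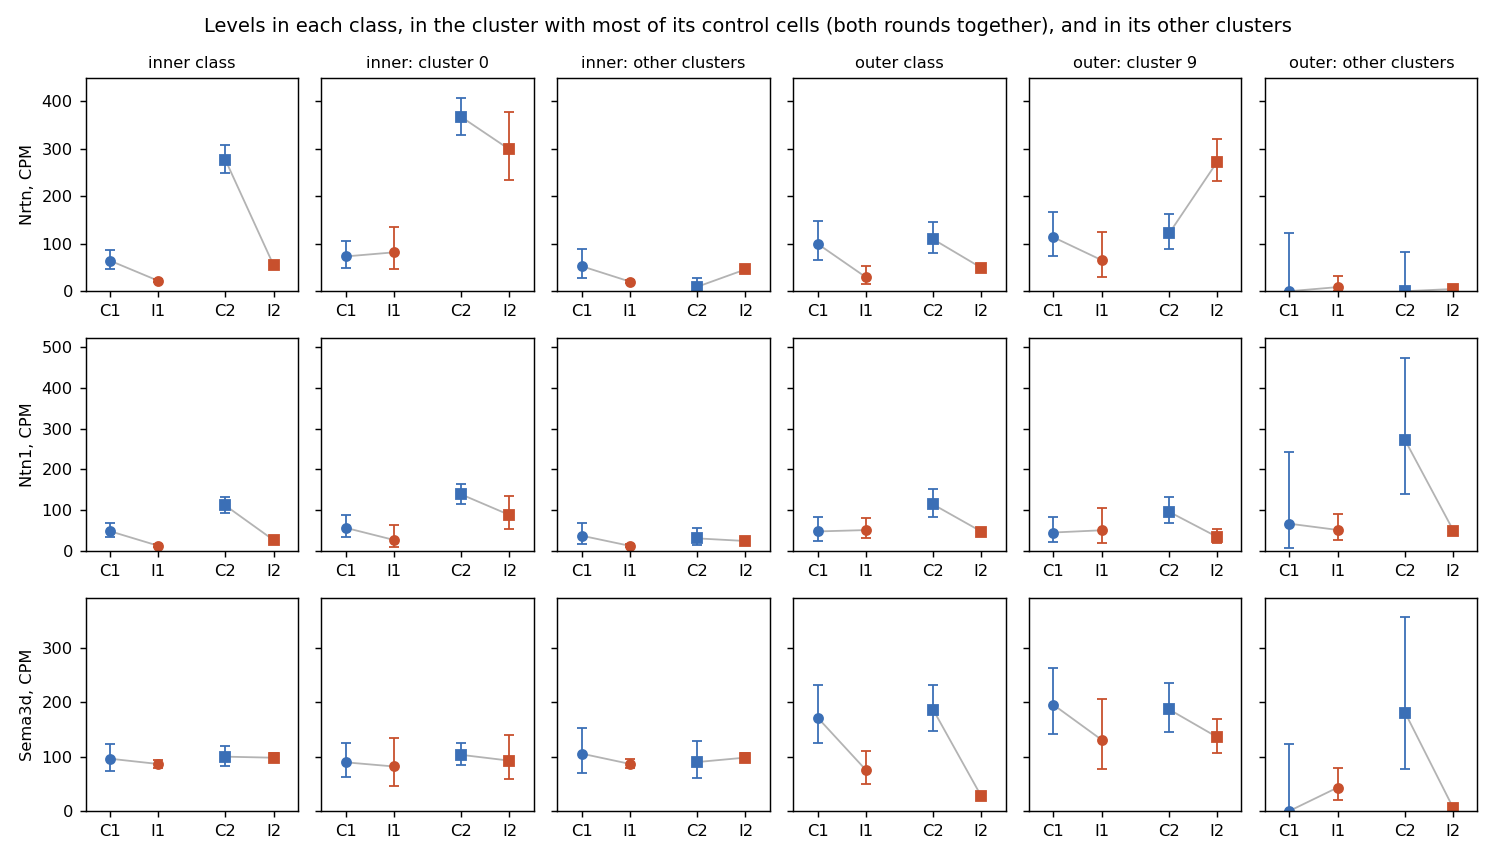
Nrtn, Ntn1 and Sema3d (rows, CPM) in the 4 libraries within the inner class, cluster 0, inner cells outside it, the outer class, cluster 9 and outer cells outside it, with exact Poisson 95% intervals; C (blue) is control, I (red) injured, and the digit on the axis is the round. In the inner class Nrtn is lower in both injured libraries, at 22.3 and 55.1 CPM, whereas in cluster 0 it is 81.9 and 299 CPM beside 73.3 and 367 CPM in controls.

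In the outer class the same markers summed to 29115 and 37898 CPM in controls and 39889 and 48566 CPM in injured libraries, with 16 or 17 of 17 detected. Sema3d there had 172 and 186 CPM in controls and 75.8 and 26.7 CPM in injured libraries. Nrtn had 100.1 and 109 CPM in controls and 29.8 and 49.2 CPM in injured libraries. Sema3c had 104 and 149 CPM in controls and 73.1 and 51.3 CPM in injured libraries. In all 3 genes both injured libraries lay below both controls. Those of Sema3e did too, with 36.0 and 62.9 CPM against 35.2 and 18.9 CPM, but hardly in round 1. The round 1 ratio was 0.977 (0.386 to 2.59), from 9 and 13 UMIs. Sema3a, with 16.0 and 151 CPM in controls and 43.3 and 18.9 CPM in injured libraries, overlapped. Ntn1 had 48.0 and 114 CPM against 51.4 and 47.7 CPM and overlapped too. Of the 5182 genes tested in the outer class, 17.9% had both injured libraries below both controls and 24.7% above.

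None of the 6 genes tested in the outer class was called by edgeR, where 68 of 5182 genes (1.31%) were called and 661 had an unadjusted p under 0.05, 4 of them among the 6. The values were -1.98 ± 0.54 for Sema3d (adjusted p = 0.123), -1.69 ± 0.76 for Sema3a (adjusted p = 0.386), -1.36 ± 0.44 for Nrtn (adjusted p = 0.191) and -1.11 for Sema3c (adjusted p = 0.308). All 6 were negative, with a median of -1.23 beside 0.00 over all genes tested. With the round as a block, 563 genes (10.9%) were called, 5.17% lower, among them 4 of the 6, all lower: Sema3d at -2.12 ± 0.41 (adjusted p = 1.08e-05), Sema3a at -1.77 ± 0.45 (adjusted p = 0.00179), Nrtn at -1.38 ± 0.41 (adjusted p = 0.0102) and Sema3c at -1.14 ± 0.41 (adjusted p = 0.0484). The shared barcodes were not in the outer class and made no difference to these values.

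Sema3a rested on control round 2, without which its value was 0.74 with the sign turned, and in round 1 it was higher in the injured library. Its round ratios were 2.70 (0.872 to 11.1) and 0.125 (0.0868 to 0.179). Its p-value with the block therefore does not measure its own spread between rounds. Sema3d was also called without the block when control round 1 (-2.05, adjusted p = 0.0433) or injured round 1 (-2.75, adjusted p = 0.0270) was left out, and in cells with at least 500 genes, where 201 of 4972 genes (4.04%) were called, or under 10% mitochondrial UMIs, where 41 of 4562 (0.899%) were. It was not called without control round 2 (-1.95, adjusted p = 0.105) or without injured round 2 (-1.30, adjusted p = 0.655, edgeR). Injured round 1 had only 33 outer cells.

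Within cluster 9, Sema3d had 195 and 187 CPM in controls and 131 and 136 CPM in injured libraries, with ratios of 0.670 and 0.726 and an edgeR value of -0.36. Nrtn in this cluster had 114 and 122 CPM in controls and 65.5 and 273 CPM in injured libraries, and the round 2 ratio was 2.24 (1.60 to 3.18). Sema3a had 18.2 and 143 CPM in controls and 109 and 70.6 CPM in injured libraries. Sema3c in this cluster had ratios of 0.946 (0.438 to 1.96) in round 1 and 0.638 (0.412 to 0.986) in round 2. Its edgeR value was -0.25 ± 0.44 here, beside -1.11 in the whole outer class. The Sema3d and Sema3c groups did not overlap here, while the Nrtn and Sema3a groups did. None of the 3902 genes tested in cluster 9 was called by edgeR, and 117 had an unadjusted p under 0.05; with the block 37 (0.948%) were called, none of them among the 9 genes. Outside cluster 9, outer cells had 43.1 and 5.03 CPM of Sema3d in injured libraries, and the controls held only 6 and 9 such cells.

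**Figure D4:**
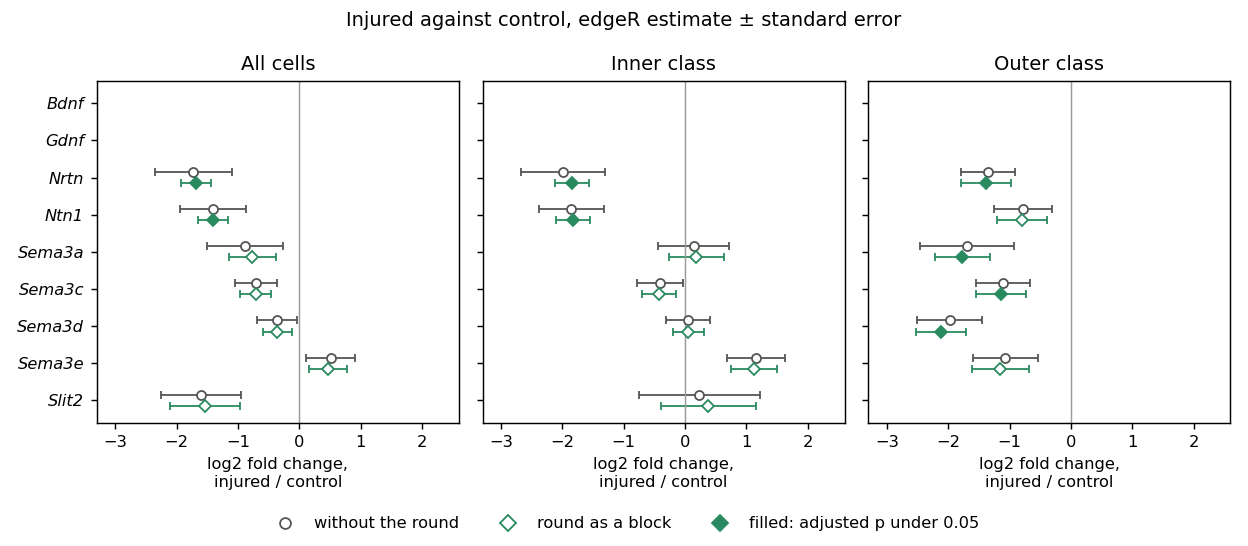
Log2 fold change of injured against control with its SE from edgeR, over all cells, the inner class and the outer class. Circles are fits without the round and green diamonds fits with the round as a block, filled where the adjusted p was under 0.05; Nrtn lies below 0 in all 3 panels, and Sema3e lies above 0 in the inner class (1.16) and below 0 in the outer class.

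The 2 classes were also compared directly, as sums of inner and outer cells from the same libraries. The classes were built from other genes of the same cells, so this contrast is not independent of the clustering. By edgeR, 984 of 9061 genes (10.9%) were called, 5.83% higher in the outer class. Sema3a was the 1 gene called among the 6 tested, at 1.79 ± 0.44 (adjusted p = 0.0275), and was higher in the outer class in 4 of 4 libraries. The outer class value of Sema3a came with cluster 9 in the injured libraries. In them, cluster 9 had 109 and 70.6 CPM, while the 15 and 322 outer cells outside it had 4.31 and 8.63 CPM, below the 11.3 and 12.3 CPM of the inner class. The 6 and 9 such cells of the controls had 0 and 10 UMIs. Without control round 2 the difference between classes was 1.16 (adjusted p = 0.142), and without injured round 1 it was 1.77 (adjusted p = 0.126). Sema3c had 0.75 ± 0.22 (adjusted p = 0.0528) and was called in 4 of 12 alternatives. Ntn1, Nrtn, Sema3d and Sema3e had values between -0.23 and 0.68 and were not called.

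The difference of the injury effect between classes was tested as an interaction, for which edgeR called 52 of 9061 genes (0.574%) and none of the 6. Sema3d had -2.22 ± 0.49 (adjusted p = 0.0626) and Sema3e -2.27 ± 0.54 (adjusted p = 0.0891), both meaning a lower injured to control ratio in the outer class. Sema3a had -1.97 (adjusted p = 0.299), Ntn1 1.04 (adjusted p = 0.569). Sema3d was called in 4 of 12 alternatives, including those without control round 1 (-2.27, adjusted p = 0.00692), without injured round 1 (-2.99, adjusted p = 0.000213) and without control round 2 (-2.20, adjusted p = 0.0288). Sema3e was called without injured round 1 (-2.48, adjusted p = 0.0134), and so was Sema3a (-2.58, adjusted p = 0.0141).

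The share of cells with a UMI depends on depth, so cells were thinned to 500 UMIs. Averaged over all possible draws, Nrtn was then present in 1.73% of the cells of control round 1 and 1.12% of those of injured round 1, and in 8.0% and 2.59% in round 2. Without the shared barcodes the share in control round 1 was 2.55%, by either way of choosing them. The round 1 shares stood for 6.54 and 7.87 cells, and 1 single random draw gave 1.06% (0.289 to 2.69%, exact binomial 95% interval) and 1.56% (0.781 to 2.77%), the other way round, so no order is read from them. In round 2 the single draw gave 8.99% (6.70 to 11.7%) and 2.61% (1.92 to 3.46%). Before thinning, the shares were 10.6% and 14.5% in round 1 and 18.8% and 16.7% in round 2, control first. Thinning left out 322 of the 856 cells of control round 2 and 0 cells of control round 1, and 73 and 70 cells of the injured libraries. In cluster 0 the average over draws in round 1 was 3.61% of 75 control cells and 5.08% of 27 injured cells, and in round 2 it was 17.9% of 207 and 13.9% of 72 cells. Macrophage-like cells, a cell type that should lack Nrtn, had it in 0 of 37 and 0 of 91 thinned injured cells of the single draw, which allows shares of up to 9.49% and 3.97% (exact binomial 95% interval); their median depths were 3524 and 3234.5 UMIs per cell.

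**Figure D5:**
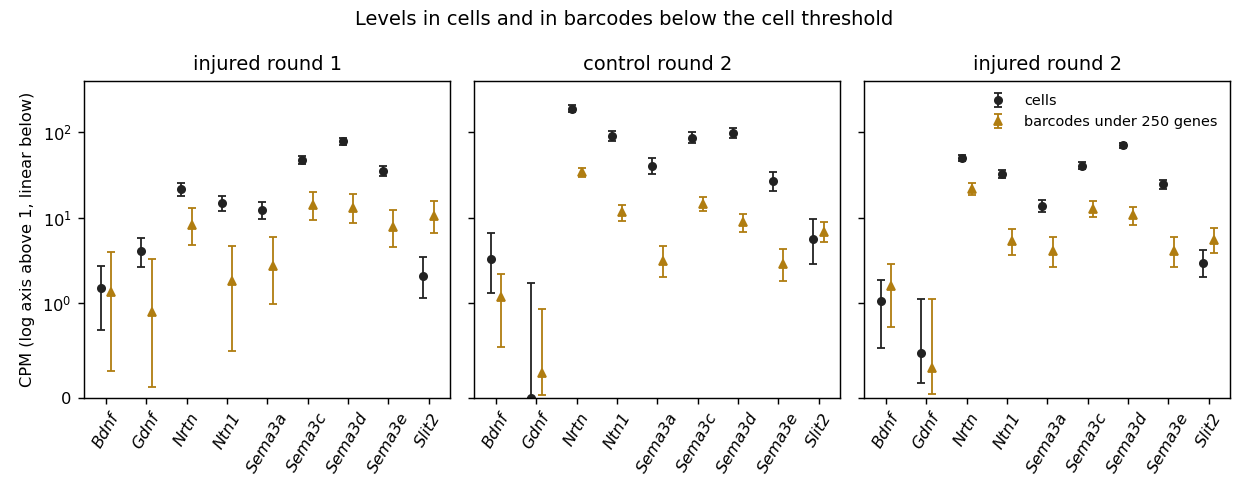
CPM of each gene in cells and in barcodes with under 250 genes, for the 3 libraries whose matrices list such barcodes in number, on a symmetric log axis. Slit2 is higher outside cells in all 3 libraries, whereas Nrtn is lower outside, for example 34.3 beside 190 CPM in control round 2.

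Levels in barcodes outside cells were set beside those in cells. Slit2 had 10.4, 6.86 and 5.46 CPM in barcodes with under 250 genes of injured round 1, control round 2 and injured round 2, against 2.08, 5.55 and 2.94 CPM in cells. Its level in cells was thus at or below that outside in these 3 libraries. Nrtn had 8.12, 34.3 and 21.7 CPM outside cells in the same order, against 21.4, 190 and 50.4 CPM in cells, so the order of the libraries outside cells was that in cells. Sema3d had 13.1, 8.80 and 10.6 CPM outside cells, far under its 78.2, 99.5 and 70.3 CPM in cells. The part of RNA outside cells in the results was not tested.

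The patterns over clusters placed other genes near each member. Over 18 clusters with at least 20 cells, the Pearson correlation of log2(CPM + 10) with Nrtn was highest for Celsr2 (r = 0.919), Chst5 (0.897) and Kcnma1 (0.893), among 8015 genes. Sema3d was most like Fibin (0.968) and Wif1 (0.953), the last a secreted Wnt inhibitor. Sema3a was most like Cilp2, Tnmd and Uts2r (0.908 to 0.911), of which Tnmd encodes the tendon protein tenomodulin. Ntn1 was most like Wnt9a (0.853), Sema3c like Il11ra1 (0.892), Sema3e like Hoxa11os (0.919) and Slit2 like Peg3 (0.787). Among the members, Sema3d and Sema3e had r = 0.866, Nrtn and Sema3d 0.772, and Sema3a and Sema3d 0.746. Clusters share libraries and differ in depth, so these are descriptions over clusters and have no p.

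Of 66 other genes of these pathways in 5 lists, 38 were tested over all cells and none was called by edgeR; with the round as a block 1 was called, higher. In the inner class, 28 of the 66 were tested and none was called without the block. With it, 5 were called higher, 4 of which follow, and 1 lower, beside 2.17% and 2.14% of all genes tested. Ntrk2, which encodes the receptor of Bdnf, had 18.9 and 10.9 CPM in controls and 40.8 and 34.1 CPM in injured libraries (1.53 with the block, adjusted p = 0.0263, edgeR). Both injured libraries lay above both controls.

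Manf, an endoplasmic reticulum stress-responsive trophic factor, had 150 and 99.2 CPM in controls and 285 and 209 CPM in injured libraries (1.14 with the block, adjusted p = 0.0264). Nrp2, a neuropilin that binds class 3 semaphorins, had 59.98 and 24.99 CPM against 133 and 42.3 CPM (1.09, adjusted p = 0.0400), where the libraries overlapped. Sema4b had 2.00 (adjusted p = 0.0386), and the netrin Ntn3 was lower at -2.58 (adjusted p = 0.0369) from 3 and 11 UMIs in controls and 3 and 9 in injured libraries.

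In the outer class, 8 of the 66 were tested and Ptn, encoding the growth factor pleiotrophin, was called. It had 40.0 and 21.0 CPM in controls and 152 and 183 CPM in injured libraries, and rose by 2.48 ± 0.51 on the log2 scale (adjusted p = 0.0429, edgeR), beside 1% of all genes called higher. It was called in 11 of 14 alternatives, and not in cells under 10% mitochondrial UMIs (0.58, adjusted p = 0.834), at a clustering resolution of 2 (2.28, adjusted p = 0.0547) or without control round 2 (2.01, adjusted p = 0.268). With the block the netrin Ntn4 (-1.54, adjusted p = 0.00169) and the repulsive guidance molecule gene Rgmb (-1.42, adjusted p = 0.0166) were called lower.

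Between classes, 19 of the 66 were tested and 3 were called, all higher in the outer class. Ptn had 5.69 ± 0.44 (adjusted p = 5.79e-05, edgeR), called in 12 of 12 alternatives. Nrp1, the neuropilin through which Sema3a acts, had 24.0 and 2.33 CPM in the outer class of controls and 24.4 and 30.0 CPM in that of injured libraries, and in the inner class 6.31 and 0.781 CPM in controls and 1.22 and 0.457 CPM in injured libraries. It had 4.13 (adjusted p = 0.00413) and 3.19 without injured round 2, where the call was lost (adjusted p = 0.0701). Plxnb2, a plexin of class 4 semaphorins, had 0.88 (adjusted p = 0.0413), and was called in 5 of 12 alternatives and in none that left out a library. Of the remaining lists, the genes with the most UMIs were Ntn4 (1851 UMIs), Nrp2 (1675 UMIs) and Slit3 (94 UMIs); over all cells their values were -0.64, 0.64 and -0.87, not called.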

How the data were processed

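UMI counts per gene and barcode of 4 droplet libraries were used as the authors deposited them. They were made with Cell Ranger on mm10 per the labels, in version 6.0.0 for control round 1 and version 4 for the other libraries per the file headers. The deposited counts are whole numbers and not normalized. Cells had at least 250 detected genes and genes were kept if seen in at least 5 cells, the minimums given in the labels. Doublets were not removed. Barcode sequences were compared only in round 1.

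For clustering, the 9 genes and 66 pathway genes were left out, UMIs were scaled to 10000 per cell, and 2000 variable genes (capped at 10) gave 30 principal components, 20 neighbours and Leiden clusters at resolution 1 (scanpy 1.11.5, leidenalg 0.10.2). Clusters were named after the class that had most markers detected in them. A marker counted as detected with a UMI in at least 25% of the cells and a mean 1.2 times that elsewhere. Clusters stayed unnamed with under 3 markers, a tie between classes, more markers of another class among their 10 leading genes, or few UMIs. They also stayed unnamed where over 50% of their control round 1 barcodes were shared with similar UMIs.

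For each library, UMIs were added up over all cells, the disc classes and each single class, and the sums were tested two-sidedly with edgeR 4.0.16 (quasi-likelihood, default filter, TMM, Benjamini-Hochberg over all genes tested, called under 0.05) in R 4.3.3. Outer against inner sums had the library as a term. DESeq2 1.42.0 was an alternative, and the scripts were tested on simulated data. The SE was derived from the log2 fold change and the F statistic (change over root F). Poisson and binomial 95% intervals, and limits of 3 counts at 0, cover counting error only, as do the intervals of ratios within a round.

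Rounds pair the libraries, since the labels say that control and injured discs came from the same animals. Deviations from the group means correlated within rounds at 0.528 over all cells (11990 genes), 0.544 for inner cells and 0.332 for outer cells. Tests within clusters 0 and 9, thinned shares averaged over draws, and the fits and shares that leave out shared barcodes beyond the one fit planned for each comparison, were added after seeing the data. The named genes are all 9 members, and of the pathway lists those called plus the gene with the most UMIs per list, except items not reported here. Members and lists were chosen with earlier results of these data known. The likeness genes had at least 200 UMIs, and the members at least 50.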

Additional observations from a re-analysis of the deposited data

How the results depend on the processing

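Of the 9 genes, none was called over all cells, where 14 of 11990 genes were. Brackets give all genes called of those tested. Without the filter on low counts 1 was called (378 of 21419), and with the round as a block 2 (736 of 11990). With the block and without the shared round 1 barcodes 2 were called (269 of 11933). Over the disc classes together 0 were called (2 of 11235), and 1 without the filter (298 of 20346). With the block 2 were called (567 of 11235), and 2 with the block without shared barcodes (298 of 11218). In the inner class 0 were called (12 of 10851), and 2 with the block (468 of 10851). With the block without shared barcodes 3 were called (984 of 10828). In the outer class 0 were called (68 of 5182), and 1 without the filter (286 of 16946). With the block 4 were called (563 of 5182), and 4 with the block without shared barcodes (563 of 5182). In cells with at least 500 genes 3 were called (201 of 4972), and 1 under 10% mitochondrial UMIs (41 of 4562). Between classes 1 gene was called (984 of 9061). Then 2 each were called with upper-quartile scaling (924 of 9061), at 500 genes (1031 of 9030) and at resolution 2 (1148 of 9094). For the interaction none was called (52 of 9061), then 2 without the filter (180 of 20282). The cause of these differences was not tested. Where a library is left out, the lone library of its group is assumed to vary like the others.

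Of 617 alternative values for single members and the 3 pathway genes called, 529 kept their direction and side of the threshold, 13 lost a call and 50 gained one. The other 25 turned sign, none of them called under that alternative or as designed. With 1 library left out, Sema3a ran from -1.52 to 0.67 on the log2 scale over all cells, -1.67 to 0.96 in disc classes, -0.35 to 1.44 in the inner class, -2.49 to 0.74 in the outer class and -0.54 to 2.39 in cluster 9. Nrtn ran from -1.56 to 1.56 in cluster 0, -0.79 to 1.48 in cluster 9, -0.52 to 0.16 between classes and -0.84 to 1.12 for the interaction. Ntn1 ran from -1.96 to 0.21 in cluster 0 and -1.06 to 0.022 in cluster 9. Sema3d ran from -0.10 to 0.23 in the inner class, -0.32 to 0.088 in cluster 0 and -0.54 to 0.63 between classes, and Sema3e from -0.46 to 0.62 in cluster 9 and -0.095 to 1.00 between classes. Slit2 in the inner class ran from -0.41 to 6.50, the latter against a control library with 0 UMIs and so no measure of size. In cells with at least 500 genes, Sema3a (-0.10) and Sema3d (-0.20) in the inner class and the Nrtn interaction (-0.28) turned sign, as did Sema3a (-0.25) and Sema3d (-0.079) in the inner class at resolution 2. In both settings the cluster led by M1ap and Fmod stayed unnamed, so its cells were not in the inner class. It had 317 cells at 500 genes and 244 at resolution 2, and its part in these signs was not tested. Counts of all genes called ran from 0 to 736 over all cells (14 as designed, 126 to 273 with a library left out), from 0 to 567 in disc classes (2 as designed, 15 to 190), from 0 to 984 in the inner class (12 as designed, 22 to 202), from 41 to 563 in the outer class (68 as designed, 80 to 172), from 881 to 1650 between classes (984 as designed, 401 to 995) and from 15 to 180 for the interaction (52 as designed, 23 to 281). Thinning cells to 1000 UMIs in place of 500, in 1 random draw each, moved 22 of 36 shares of cells. Bdnf, Gdnf and Slit2 had the fewest UMIs of the 9 genes, and the outer class of injured round 1 had 33 cells.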
